A study of Chlamydomonas reinhardtii with 27 samples.

Results

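The genes described here are the 150 genes of the green alga Chlamydomonas reinhardtii whose transcript level was below control soon after salt was added, at 2 h, and above control at the end of the experiment, at 96 h. They were chosen among the 14354 CHLREDRAFT gene models of the deposited table, of 19267 identifiers in all. The 10652 gene models with at least 50 counts per library on average over the 27 libraries entered. For each, the level L in a condition was log2(mean FPKM of 3 replicates + 1), where FPKM is a read count scaled by gene length and sequencing depth. The score was the smaller of L in control minus L at 2 h and L at 96 h minus L in control. A score of at least 0.5 was reached by 232 gene models, and the 150 with the highest scores are the members. All cultures were the wild-type strain GY-D55, grown with alternating light and dark in BG-11 to the middle of logarithmic growth. The control cultures received no NaCl. The 8 salt groups were brought to 200 mM NaCl and collected after 2, 4, 8 and 12 h and then after 24, 48, 72 and 96 h, and each of the 9 groups held 3 libraries. The sources do not give the hour at which the control was collected or whether it was diluted like the salt cultures. Salt, dilution, culture age and time of day therefore cannot be told apart in any comparison with control. Among the salt groups, hours in salt and culture age change together, and time of day can differ between times that are not whole days apart. These cannot be told apart either. The triplicates are not described as separate cultures, so p-values measure the spread between these samples only.

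Sodium chloride confronts a freshwater alga with an osmotic and an ionic load at once. Known responses of C. reinhardtii include loss of flagella, accumulation of glycerol as a compatible solute, slower growth and photosynthesis, and non-motile cell clusters called palmelloids. Transcripts that first fall and later exceed their starting level belong neither to the early induced nor to the persistently repressed genes. Of the 150 members, 1 carries a protein name in the sources used here, CHLREDRAFT_189430, a low-CO2-inducible chloroplast envelope protein. None of the 113 transcription factors listed by the study is a member. The members were 1.41% of the 10652 genes that entered, so few would be likely in a list of that size. In bulk RNA from a culture, fewer transcripts per cell and fewer cells that express a gene cannot be told apart.

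The libraries held between 15286332 and 24783139 counts (median 18749997). A pair of libraries stood apart. The 50 most abundant genes took 37.6% of the counts in 2 h replicate 1 and 41.1% in 72 h replicate 1, against 20.4% to 31.2% in the other libraries, and these 2 libraries detected 14921 and 15274 genes. The main counts are also given without them, an alternative chosen after the data were seen.

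The values that chose the members are given as a description, without a test. At 2 h the mean FPKM of a member was 1.56-fold to 117-fold below control, with a median of 2.62-fold. At 96 h it was 1.54-fold to 7.51-fold above control, with a median of 2.08-fold. A difference above 2-fold in both directions was seen for 68 members. All 3 libraries at 2 h lay below all 3 control libraries for 124 members, against 33.3% of the 10652 genes that entered. All 3 libraries at 96 h lay above all 3 control libraries for 143 members (32.4% of those genes), and both held for 121 members (2.45%). Without 2 h replicate 1 the first count was 128 (38.8% of those genes) and the count for both was 125 (3.13%). The smaller difference, which set the score, was that at 96 h for 88 members and that at 2 h for 62. The lowering at 2 h was common in this dataset, with 3729 of the 10652 genes at least 0.5 below control on the log2 scale, and the members were 4.02% of these. In the plane of the differences at 2 h and 96 h the members lay along the upper left edge of the cloud of genes.

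**Figure D1:**
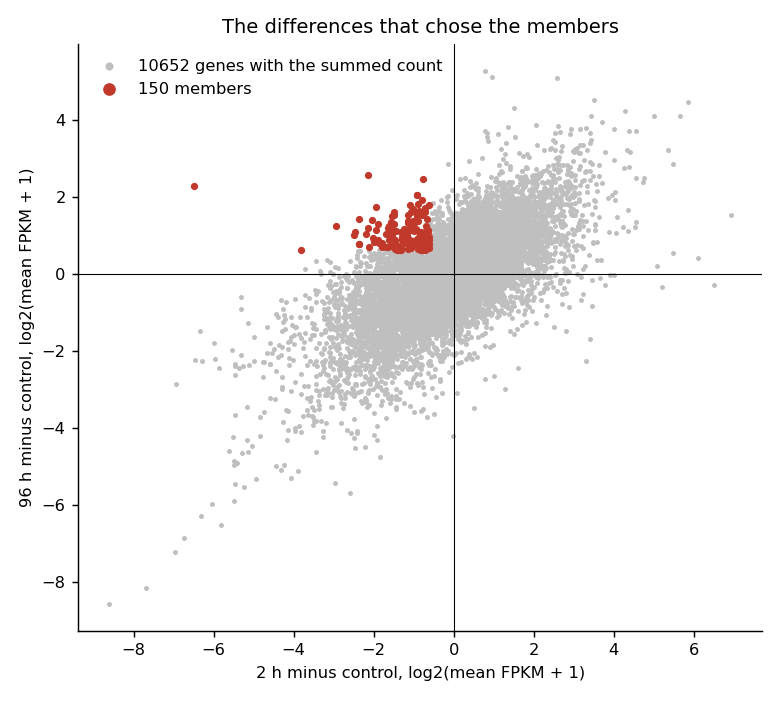
Difference from control in log2(mean FPKM + 1) at 2 h (horizontal axis) and at 96 h (vertical axis) for the 10652 genes with the summed count (grey) and the 150 members (red). The members lie at or beyond 0.616 in both directions, and CHLREDRAFT_24120 is the single red point far to the left.

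By the rule all members were down at 2 h, and they returned at different times. The median difference of the members from control was −1.08 at 2 h and −0.61 at 4 h on the log2(FPKM + 1) scale. It was 0.28 at 8 h and 0.27 at 12 h, and it then increased to 0.46, 0.70, 0.93 and 0.95 at the times from 24 to 96 h. The median over the 10652 genes stayed between −0.07 and 0.00 at every time. In the single libraries the members' median was −1.32, −1.01 and −1.14 at 2 h, where replicate 1, which stands apart, gave the lowest value. It was −0.73, −0.66 and −0.63 at 4 h, and 0.32, 0.23 and 0.30 at 8 h. At 72 h it was 1.06 in replicate 1, which stands apart, and 0.92 in each of the others. No library at 8 h or later had a median below that of any library at 4 h. The spread among members was widest at 8 h, from −4.20 to 3.05. The mean exceeded control for 22 members at 4 h, for 91 at 8 h and for 97 at 12 h, and then for 112 at 24 h, for 145 at 48 h and for all 150 at 72 h. The members took 0.385% to 0.466% of all counts in control, 0.101% to 0.169% at 2 h and 1.43% to 1.51% at 96 h.

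**Figure D2:**
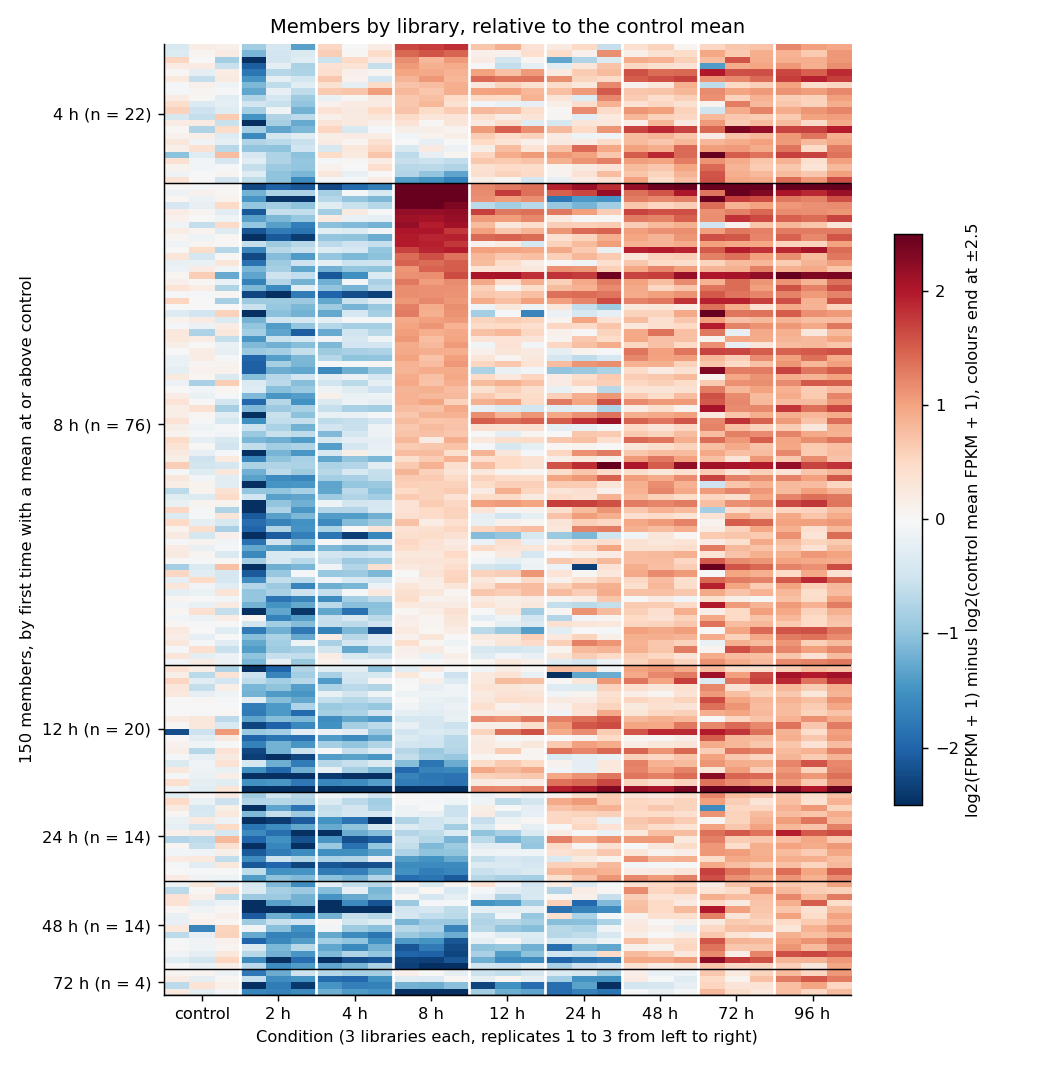
Heat map of the 150 members (vertical axis, grouped by the first time at which the mean reached control) in the 27 libraries (horizontal axis, 3 per condition). Colour gives log2(FPKM + 1) minus that of the control mean; blue columns at 2 h and 4 h give way to red from 8 h on, with 76 members turning at 8 h and later groups of 20, 14, 14 and 4 turning at 12, 24, 48 and 72 h.

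Libraries at 4 to 72 h entered the rule only through the minimum on the summed count, not through the score, and tests were made among them. The score did use 2 h and 96 h, the times next to 4 h and 72 h. The members' median difference from control was 0.93 at 72 h and 0.95 at 96 h. A rise from 4 h to 72 h was therefore likely in advance. The share over all genes does not measure what the choice of members alone gives. With edgeR's quasi-likelihood test and a Benjamini-Hochberg adjusted p below 0.05 over 16443 genes, 133 of the 150 members were upregulated at 72 h against 4 h, where 17.9% of all genes tested were upregulated. None was downregulated, against 16.9% of all genes; none was lower at an unadjusted p below 0.05 either, and DESeq2 called 0. The median log2 fold change of the members was 1.84, with an interquartile range from 1.26 to 2.52, and all 150 fold changes were above 0. The median over all genes tested was 0.00. All 3 libraries at 72 h lay above all 3 at 4 h for 140 members, against 23.4% of the genes that entered the rule. With 72 h replicate 1 left out this held for 149 members, against 30.9% of those genes. Without 72 h replicate 1 the test called 135 members, without 2 h replicate 1, which is in neither group but shares the fit, 139, and without both 142. The minimum of 50 counts per library was also met within the 9 libraries of control, 2 h and 96 h alone by 147 members, of which 131 were called higher and 0 lower. The other 3 members passed it only with the libraries of 4 to 72 h, where their mean count was higher.

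Of the 5 steps between these times, the first had the largest median change. The steps together make up the change from 4 h to 72 h. More upward than downward calls among the members were therefore likely in advance here too. At 8 h against 4 h, 86 members were upregulated (16.3% of all genes) and 14 were downregulated (17.9%), with a median log2 fold change of 0.97. At 12 h against 8 h the members split, with 35 upregulated (15% of all genes) and 29 downregulated (11.2% of all genes) and a median of −0.01. The 29 became 18 without 12 h replicate 3 and 53 with only the 6 libraries compared. At 24 h against 12 h, 27 were upregulated (8.93%) and 12 were downregulated (9.55%). At 48 h against 24 h, 33 were upregulated (6.42%) and 4 were downregulated (7.46%). At 72 h against 48 h, 12 were upregulated (1.67%) and none was downregulated (1.33%); 1 was lower at an unadjusted p below 0.05, and DESeq2 called 0. The 12 depended on the fit. There were 27 with the 18 libraries of 4 to 72 h, 24 by DESeq2 and 2 with only the 6 libraries compared. The 12 also depended on single libraries. They became 6 without 72 h replicate 1 or without any single one of the 48 h libraries, 19 without 72 h replicate 3, 20 without control replicate 3 and 26 without 2 h replicate 1. Over the 5 steps, 70 members had only upward calls, as did 14.7% of all genes tested, and 52 had calls in both directions (24.7%). A single member had only downward calls (13.9%), and 27 had none (46.7%), of which 16 were still upregulated at 72 h against 4 h.

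**Figure D3:**
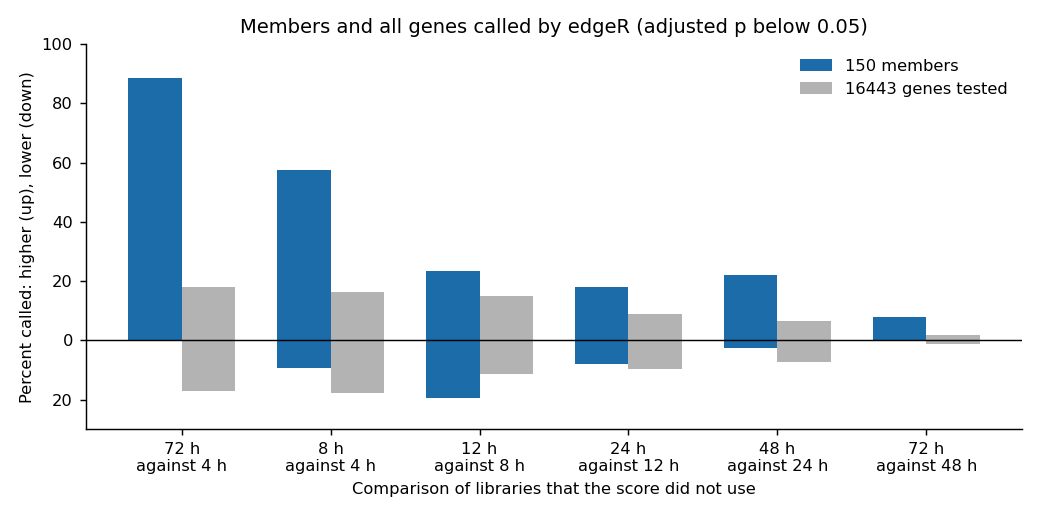
Percent of the 150 members (blue) and of the 16443 genes tested (grey) called higher (above 0) and lower (below 0) in 6 comparisons of libraries that the score did not use. At 72 h against 4 h, 133 members were called higher and 0 lower. At 12 h against 8 h the members split into 35 higher and 29 lower. Since the score used 2 h and 96 h, more upward calls among the members were likely in advance.

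The mean first reached control at 4 h for 22 members and at 8 h for 76. A further 20 members returned at 12 h, 14 at 24 h and 14 at 48 h, while 4 returned as late as 72 h. This is a description, since the control libraries set the rule. The highest mean of the whole course fell at 96 h for 50 members and at 72 h for 47. These counts include 72 h replicate 1, which stands apart, and were not repeated without it. It fell at 8 h for 21 members, at 24 h for 20 and at 48 h for 12. For 26 members the mean at 8 h was above that at 96 h, so that the late level was not the maximum of their course. A lower mean at 4 h than at 2 h was found for 21 members.

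**Figure D4:**
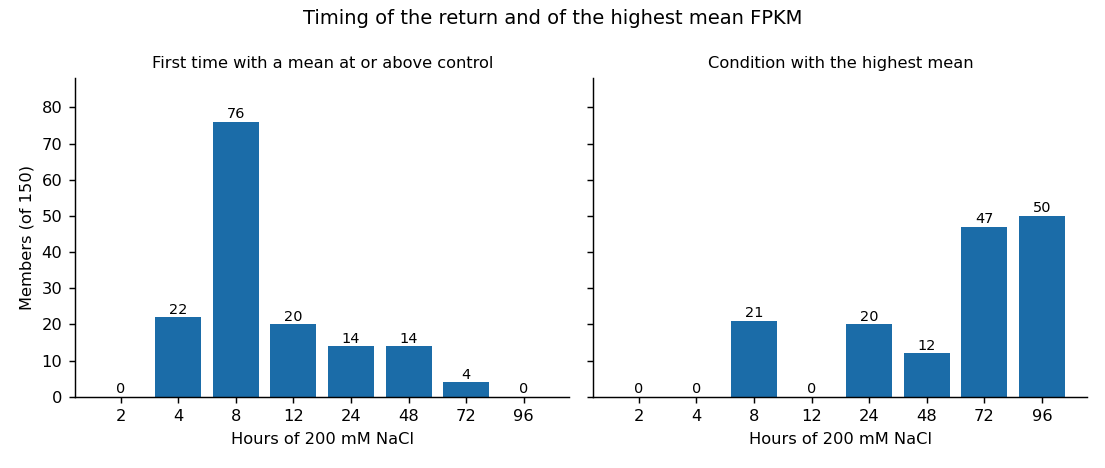
Number of members (vertical axis) by the first time with a mean FPKM at or above control (left) and by the condition with the highest mean FPKM (right), against hours of 200 mM NaCl. The return was most frequent at 8 h (76 members) and the highest mean at 96 h (50) and 72 h (47), with 72 h replicate 1 included.

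CHLREDRAFT_24120 (locus tag CHLRE_04g223100v5 in the reference table) had the highest score and the highest mean level. Its FPKM was 364, 318 and 479 in the control libraries, and 4.68, 2.63 and 2.64 at 2 h. It stayed at 5.58, 4.73 and 4.50 at 4 h and at 19.5, 21.7 and 19.3 at 8 h. The sharp step came between 8 h and 12 h, when the libraries reached 920.1, 907 and 952. The later libraries read 1492, 1641 and 1935 at 24 h, 1749.9, 1621 and 1999.9 at 48 h, 2251, 2409 and 2033 at 72 h, and 1942, 1556 and 2174 at 96 h. No library from 12 h on overlapped with control, 2 h, 4 h or 8 h. The log2 fold change was 1.99 ± 0.20 (SE) at 8 h against 4 h, with an edgeR adjusted p of 9.25e-09. It was 5.56 ± 0.22 at 12 h against 8 h, with an edgeR adjusted p of 7.57e-16, which was the highest of all members at that step. At 72 h against 4 h it was 8.80 ± 0.26, with an edgeR adjusted p of 2.32e-19. This gene alone took 0.402% to 0.472% of all counts at 96 h, and the other 149 members together 1.02% to 1.04%.

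CHLREDRAFT_189430 (CHLRE_04g223300v5), the low-CO2-inducible chloroplast envelope protein, ranked 140 by score, and its mean level was among the 5 highest. Proteins of this kind are induced when CO2 is scarce, together with the CO2-concentrating mechanism by which the alga supplies inorganic carbon to Rubisco in the chloroplast. Its FPKM was 196, 178 and 191 in control, 21.3, 7.29 and 8.57 at 2 h and 29.2, 22.5 and 26.9 at 4 h. It returned in stages, to 134, 140.3 and 122 at 8 h and 160.2, 158 and 163 at 12 h, and was low again at 24 h with 50.7, 58.4 and 63.1. The libraries then read 323, 268 and 332 at 48 h, 761, 386 and 307 at 72 h, and 304, 244 and 326 at 96 h. The libraries from 48 h on all exceeded control, whereas those at 2, 4 and 24 h lay well below it. The edgeR log2 fold change was 2.30 ± 0.28 at 8 h against 4 h (adjusted p = 2.80e-07). It fell by 1.47 ± 0.27 at 24 h against 12 h (edgeR adjusted p = 0.000255) and rose by 2.42 ± 0.28 at 48 h against 24 h (edgeR adjusted p = 4.22e-07). At 72 h against 4 h it was 4.18 ± 0.30 (edgeR adjusted p = 1.33e-11), and no alternative ended any of these calls. In the reference table the gene lies on the same chromosome as CHLREDRAFT_24120, with 4 genes between them. Both were lowest at 2 h and exceeded control from 48 h on, but at 12 h against 8 h, where CHLREDRAFT_24120 rose, the low-CO2 gene had a log2 fold change of 0.32 ± 0.26 (edgeR adjusted p = 0.412).

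Of the 3 genes of CO2 fixation and uptake that the sources name, the low-CO2-inducible chloroplast envelope protein is the only member. The other 2 named genes did not meet the rule. All other members lack a name in these sources, so how many of them act in CO2 fixation or uptake is not known here. CHLREDRAFT_148921, a low-CO2-inducible protein, had 275 ± 24.0 FPKM (mean ± SD, n = 3) in control, 216 ± 43.1 at 2 h and 286 ± 34.6 at the end. It fell by 1.36 ± 0.15 at 8 h against 4 h (edgeR adjusted p = 7.59e-08), the step at which the member rose. CHLREDRAFT_82986, the Rubisco small chain, had 862 ± 205 FPKM in control, 154 ± 12.0 at 4 h and 678 ± 110 at 96 h. It rose by 2.48 ± 0.16 at 72 h against 4 h (edgeR adjusted p = 2.35e-12) without exceeding control at 96 h. All 3 genes were thus upregulated at 72 h against 4 h, the low-CO2-inducible protein by 0.40 ± 0.15 (edgeR adjusted p = 0.0366). The members' list holds none of the 7 named genes of photosystems and light harvesting, the 3 chaperones or the 4 named genes each of lipid and glycerol metabolism and of starch and glycolysis. The members were 1.41% of the 10652 genes that entered, so none would be likely in lists this short. These lists say nothing about the functions of members without a name.

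Among the other members with high levels, CHLREDRAFT_158745 (CHLRE_03g159254v5) read 114, 104 and 131 FPKM in control, 15.4, 14.0 and 13.0 at 2 h, 35.6, 32.2 and 31.7 at 8 h, and 174, 179 and 185 at 12 h. It thus made its return at the same step as CHLREDRAFT_24120, with a log2 fold change of 2.48 ± 0.17 at 12 h against 8 h (edgeR adjusted p = 1.15e-11). At 72 h the libraries read 557, 319 and 310.3, with the high value in replicate 1. CHLREDRAFT_194475 (CHLRE_16g663900v5) stayed low through 8 h, at 58.8, 61.6 and 48.7 FPKM at 2 h, 54.4, 56.6 and 65.2 at 4 h, and 50.3, 48.6 and 46.0 at 8 h. It then rose at both following steps, to 199, 195 and 193 at 12 h and 438, 464 and 545 at 24 h. It fell by 0.97 ± 0.17 at 48 h against 24 h (edgeR adjusted p = 0.000153), so that its highest mean came at 24 h. CHLREDRAFT_195621 (CHLRE_06g299000v5) instead returned at 8 h, from 128, 118 and 131 FPKM at 4 h to 385, 353 and 342, a log2 fold change of 1.48 ± 0.16 (edgeR adjusted p = 4.83e-08). It stood at 389, 351 and 344 at 12 h, and no later step passed the test.

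Some members were higher at 8 h than at the times on either side. In all, 28 members were upregulated at 8 h against 4 h and downregulated at 12 h against 8 h, as were 6.46% of all genes tested. CHLREDRAFT_193036, ranked 2 by score, read 7.12, 6.74 and 7.16 FPKM in control, 0.672, 0.975 and 0.807 at 2 h, 0.682, 1.12 and 1.45 at 4 h, and then 62.5, 64.4 and 68.8 at 8 h. The 8 h libraries lay far above both control and 4 h, with a log2 fold change of 5.86 ± 0.20 against 4 h (edgeR adjusted p = 1.96e-17). It fell by 1.77 ± 0.16 to 12 h (edgeR adjusted p = 2.77e-09). It read 65.4, 55.1 and 56.9 at 72 h, and 44.5, 47.0 and 48.6 at 96 h. The 72 h libraries overlapped with those of 8 h only through replicate 1, which stands apart. CHLREDRAFT_141065 (CHLRE_10g422850v5) had the same order of levels over 4 h, 8 h and 12 h at smaller amplitude. It had 6.16, 5.85 and 7.29 FPKM at 4 h, 34.3, 34.0 and 28.6 at 8 h, and 16.7, 12.9 and 14.6 at 12 h. CHLREDRAFT_195255 (CHLRE_08g358580v5) rose from 7.54, 7.28 and 5.99 FPKM at 4 h to 64.2, 61.4 and 62.3 at 8 h, its highest level, and fell by 0.81 ± 0.17 at 24 h against 12 h (edgeR adjusted p = 0.00115). Its decrease at 12 h against 8 h, when it fell by 0.47 ± 0.17 (edgeR adjusted p = 0.0395), was lost without any single library of 8 h or 12 h.

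CHLREDRAFT_135713 (CHLRE_06g307500v5) alternated between high and low levels. It read 51.0, 44.1 and 52.3 FPKM in control, 17.0, 8.35 and 8.32 at 2 h, 29.7, 24.4 and 21.9 at 4 h, and 318, 331 and 283 at 8 h. It then declined to 110.5, 102 and 111 at 12 h and to 13.3, 17.5 and 17.1 at 24 h, and recovered to 121, 114 and 119.7 at 48 h. The libraries at 2 h and 24 h lay below every control library, whereas those at 8, 12 and 48 h all lay above control. Those at 2 h and 24 h overlapped with each other only through 2 h replicate 1, which stands apart. The log2 fold change was 3.58 ± 0.24 at 8 h against 4 h (edgeR adjusted p = 1.31e-11). It fell by 2.74 ± 0.24 at 24 h against 12 h (edgeR adjusted p = 2.73e-09) and rose by 2.89 ± 0.24 at 48 h against 24 h (edgeR adjusted p = 2.58e-09). At 72 h it read 321, 164 and 154, again with the high value in replicate 1.

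**Figure D5:**
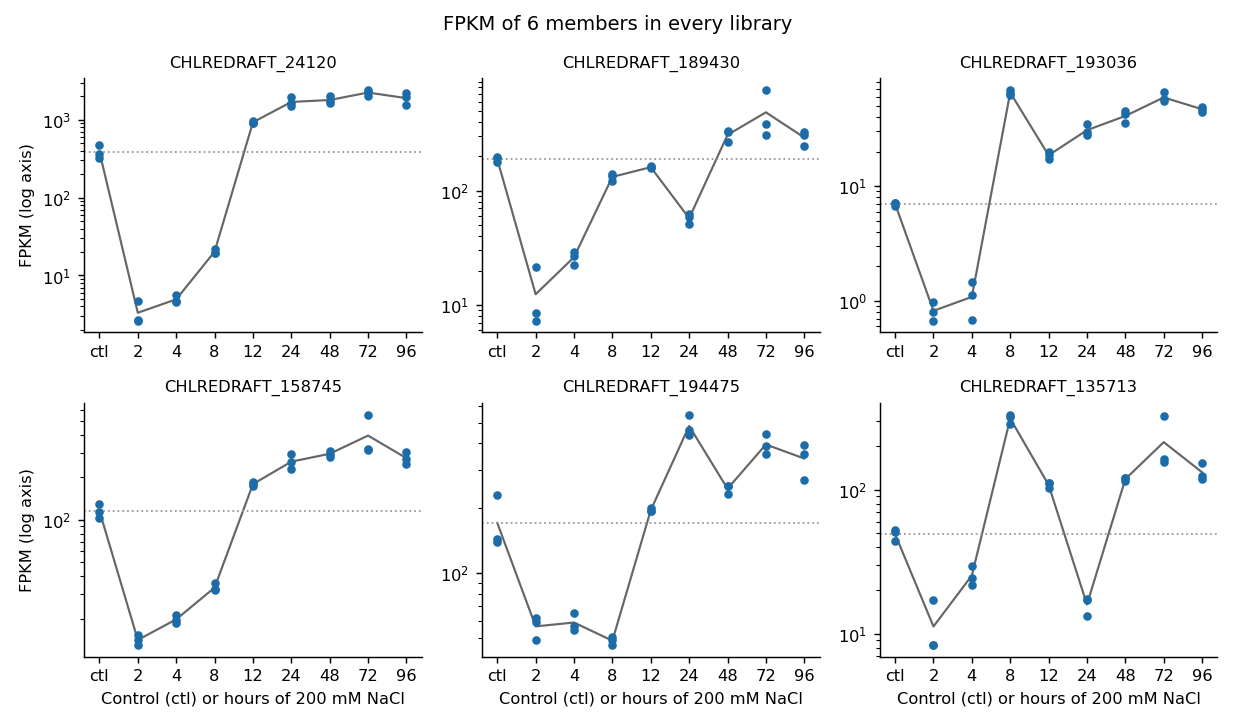
FPKM (log axis) of 6 members in each of the 27 libraries (points), with the mean per condition (line) and the control mean (dotted). CHLREDRAFT_24120, CHLREDRAFT_158745 and CHLREDRAFT_194475 rise between 8 h and 12 h, CHLREDRAFT_193036 and CHLREDRAFT_135713 peak at 8 h, and CHLREDRAFT_189430 and CHLREDRAFT_135713 are low again at 24 h.

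In all, 10 members were downregulated at 24 h against 12 h and upregulated at 48 h against 24 h, a pair of calls that 3.22% of all genes tested had. The opposite pair was found for 4 members (4.01% of all genes), among them CHLREDRAFT_194475. The 10 include CHLREDRAFT_2180 (CHLRE_10g436300v5), which read 29.6, 22.8 and 21.2 FPKM at 12 h, 13.9, 16.2 and 14.6 at 24 h and 52.7, 47.7 and 52.5 at 48 h. It is also 1 of the 4 members whose mean first reached control at 72 h, a group named here after its values were seen. The others are CHLREDRAFT_141251 (CHLRE_02g076987v5), CHLREDRAFT_160132 (CHLRE_02g095069v5) and CHLREDRAFT_151867 (CHLRE_11g467653v5). CHLREDRAFT_141251 read 0.956, 0.888 and 1.60 FPKM at 4 h and 3.12, 1.59 and 1.56 at 24 h. It read 7.57, 6.14 and 5.01 at 48 h and 17.0, 20.4 and 17.1 at 96 h, against 7.36, 5.24 and 6.57 in control. CHLREDRAFT_160132 read 4.26, 3.84 and 3.07 at 8 h, close to its control libraries at 4.04, 4.06 and 3.41. For all 4 the 48 h libraries overlapped with the control libraries, so the late return of the mean rests on small differences. The group was defined by means below control at 4 h and at or above it at 72 h. A rise between these times was thus fixed in advance and is only described. The log2 fold changes at 72 h against 4 h ran from 1.67 ± 0.38 (CHLREDRAFT_160132) to 2.98 ± 0.34 (CHLREDRAFT_141251).

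Downregulation at 8 h against 4 h and then upregulation at 12 h against 8 h were called for 13 members. This is a share close to the 8.67% of all genes tested with these calls. They include CHLREDRAFT_2180, which is also among the 10 above. CHLREDRAFT_2180 fell by 1.82 ± 0.17 and then rose by 2.08 ± 0.17 (edgeR adjusted p = 4.48e-09 and 4.66e-10), from 22.9, 19.8 and 19.0 FPKM at 4 h to 6.08, 6.81 and 5.01 at 8 h. CHLREDRAFT_205922 (CHLRE_03g149650v5) had returned to control at 4 h, with 53.8, 50.6 and 67.8 FPKM against 53.4, 48.1 and 48.9, and dropped to 30.6, 31.1 and 29.2 at 8 h before reading 65.8, 70.7 and 68.9 at 12 h. Its 8 h libraries lay below all libraries of control and 4 h, and within the range of the 2 h libraries at 32.7, 26.3 and 24.6. CHLREDRAFT_142942 (CHLRE_10g449050v5) fell at 8 h against 4 h by 0.92 ± 0.22 (edgeR adjusted p = 0.00139), stayed at 4.23 to 5.80 FPKM in the libraries of 12 h and 24 h, and rose by 1.24 ± 0.22 at 48 h against 24 h (edgeR adjusted p = 0.000187).

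Other members with high scores or large changes rose later or in several stages. CHLREDRAFT_184724 (CHLRE_08g365900v5) read 6.69, 5.90 and 12.7 FPKM in control and 0.606 to 3.02 in every library from 4 h to 24 h. It then read 17.5, 17.3 and 18.7 at 48 h, a log2 fold change of 3.47 ± 0.37 against 24 h (edgeR adjusted p = 1.11e-07), the highest of all members at that step. Its 72 h libraries read 43.6, 30.8 and 27.4, and the 96 h libraries 16.0, 16.0 and 19.0. CHLREDRAFT_195241, ranked 3 by score, increased more evenly, from 0.50, 3.4 and 3.94 FPKM at 4 h to 11.1, 9.34 and 8.33 at 24 h, when its mean reached control, 26.0, 29.2 and 25.7 at 72 h and 39.3, 29.3 and 31.3 at 96 h. Its log2 fold change at 72 h against 4 h was 3.33 ± 0.42 (edgeR adjusted p = 3.81e-07). CHLREDRAFT_181246 (CHLRE_28g757747v5), ranked 4 by score, rose by 1.90 ± 0.30 to 23.6, 20.7 and 22.6 FPKM at 8 h (edgeR adjusted p = 1.64e-05) and fell by 1.16 ± 0.30 at 12 h against 8 h (edgeR adjusted p = 0.00383). It had 41.4, 39.3 and 42.3 FPKM at 48 h and 60.8, 62.9 and 51.3 at 96 h. Its 72 h libraries were 19.8, 40.2 and 54.9, with the low value in replicate 1, which for this gene lay on the other side of its group than for CHLREDRAFT_189430.

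For some members single libraries weighed on the 2 h value. CHLREDRAFT_135128 (CHLRE_03g162550v5) was listed at 0 FPKM in 2 h replicate 1 and at 0.727 and 0.657 in the others, against 2.48, 3.4 and 3.43 in control and 12.3, 9.33 and 10.7 at 96 h. CHLREDRAFT_115146 read 3.67, 5.51 and 12.9 in control, 0, 2.61 and 2.80 at 2 h, and 54.2, 23.9 and 21.7 at 72 h. CHLREDRAFT_123233 (CHLRE_07g325748v5) read 0.243, 3.64 and 3.01 at 2 h, with the low value again in replicate 1. CHLREDRAFT_186566 (CHLRE_02g085500v5) had counts of 0, 1 and 0 at 2 h, 0, 1 and 9 at 4 h, and 65, 92 and 112 at 72 h. It was the only member with no 2 h library above 3 counts. It passed the minimum on the summed count only through the libraries of 4 to 72 h, so no test of its later rise is given. A library with 0 counts was found for 22 members, for 21 of them in 2 h replicate 1, and 114 had at least 10 counts in every library.

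The smallest changes among the members called at 72 h against 4 h were those of CHLREDRAFT_186951 (0.72 ± 0.16), CHLREDRAFT_173600 (0.72 ± 0.27), CHLREDRAFT_142942 (0.77 ± 0.21), CHLREDRAFT_205922 (0.80 ± 0.16) and CHLREDRAFT_179565 (0.81 ± 0.30). CHLREDRAFT_186951 (CHLRE_02g098650v5) had returned to control by 4 h, at 15.4, 14.0 and 17.6 FPKM against 16.3, 12.5 and 11 in control, and reached 24.3, 26.3 and 28.1 at 72 h. The calls of CHLREDRAFT_173600 and CHLREDRAFT_179565 were lost without any single 4 h library. That of CHLREDRAFT_173600 was also lost without 72 h replicate 1 or 3, and that of CHLREDRAFT_179565 without 72 h replicate 2 or 3.

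The reference table placed 131 of the 150 members on its gene order, on 17 chromosomes, with 3 pairs of adjacent members and 1 pair with a single gene between. CHLREDRAFT_143370 and CHLREDRAFT_205736 (CHLRE_13g566800v5 and CHLRE_13g566850v5) are adjacent. Both were lower at 8 h and higher at 12 h. The first read 13.5, 8.34 and 6.60 FPKM at 4 h, 3.26, 4.20 and 4.40 at 8 h, and 31.5, 28.1 and 30.9 at 12 h. The second read 4.68, 5.23 and 6.32, then 3.49, 1.65 and 2.97, then 11.9, 13.7 and 12.2, and its call at 8 h against 4 h was lost without 8 h replicate 2. Their log2 fold changes at 12 h against 8 h were 2.97 ± 0.28 and 2.27 ± 0.32 (edgeR adjusted p = 6.12e-09 and 3.12e-06). CHLREDRAFT_135713 and the adjacent CHLREDRAFT_144879 (CHLRE_06g307551v5) moved to unequal extents. The latter read 25.0, 26.7 and 26.7 FPKM at 4 h and 37.5, 41.5 and 30.3 at 8 h, with a log2 fold change of 0.44 ± 0.26 (edgeR adjusted p = 0.203). CHLREDRAFT_153808 and CHLREDRAFT_153807 (CHLRE_14g609100v5 and CHLRE_14g609150v5) had log2 fold changes at 72 h against 4 h of 0.98 ± 0.27 (edgeR adjusted p = 0.0057) and 0.40 ± 0.41 (edgeR adjusted p = 0.478). CHLREDRAFT_129990 and CHLREDRAFT_173600 (CHLRE_09g393400v5 and CHLRE_09g393551v5), with 1 gene between, rose by 2.23 ± 0.15 and 0.72 ± 0.27. The sources do not state whether the strand was used in counting, so reads of overlapping neighbours cannot be told apart.

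Membership ended without a gap. The last 3 members by score were CHLREDRAFT_81427 (0.621), CHLREDRAFT_195621 (0.619) and CHLREDRAFT_142105 (0.616). The next genes below were CHLREDRAFT_161860 (0.615), CHLREDRAFT_205732 (0.614) and CHLREDRAFT_168932 (0.614). CHLREDRAFT_142105 read 4.48, 4.13 and 4.39 FPKM in control, 2.88, 1.91 and 1.51 at 2 h and 7.34, 6.51 and 7.66 at 96 h. CHLREDRAFT_161860 read 28.9, 24.7 and 26.8, then 11.8, 12.4 and 16.7, then 41.2, 34.0 and 49.6. When 2 h replicate 1 was left out of the rule, 126 of the 150 genes were chosen again.

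Other classes of genes were set beside the members as a description. The classes were cut on the levels at 2 h and 96 h, next to 4 h and 72 h. The order of their changes at 72 h against 4 h was therefore likely in advance. The 82 genes that passed a score of 0.5 below the members had 63 higher and 0 lower at 72 h against 4 h by the same test, with a median log2 fold change of 1.43. The 1129 genes lowered by at least 0.5 at 2 h and within 0.5 of control at 96 h had 605 upregulated (53.6%) and 2 downregulated, with a median of 0.72. The 2368 genes lowered at both times had 504 upregulated and 425 downregulated, with a median of −0.01. The 223 genes under the mirror rule, raised at 2 h and lowered at 96 h, had 192 downregulated and 0 upregulated, with a median of −1.28. Without 2 h replicate 1 and 72 h replicate 1 these 4 classes had 68 higher and 0 lower, 685 and 7, 599 and 453, and 0 and 205. The median of the members' mean FPKM over the 27 libraries, which include those of the rule, was 12.3, against 12.7 over the 10652 genes, with a range from 2.03 to 994. Their gene lengths, recovered from the ratio of count to FPKM, ranged from 166 to 5840 bases, with a median of 1225.5 against 1457.5.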

How the data were processed

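Polyadenylated RNA was sequenced by the authors as 27 libraries with paired reads. Per the labels and methods, reads were aligned with HISAT2 2.0.5, further transcripts were assembled with StringTie 1.3.3b, and the authors counted reads per gene with featureCounts. Genome and annotation came from an Ensembl Genomes plant release, per the methods. The assembly name, strand setting and treatment of multiply mapped reads are not given in the sources used here, so genes with near-identical copies are uncertain. The deposited counts are whole and not normalized. The deposited FPKM values were made by the authors from counts and gene lengths and already carry median-of-ratios scaling between libraries. Columns were matched to libraries by name, and 0 were left unmatched.

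Counts were tested with edgeR 4.0.16 in R 4.3.3 (filterByExpr, TMM scaling, a quasi-likelihood fit of all 27 libraries with 9 condition terms, two-sided, with p adjusted by Benjamini-Hochberg over all genes tested and called below 0.05). DESeq2 1.42.0 was an alternative. The standard error is the log2 fold change divided by the square root of its F statistic. The calling was also run on simulated data, and the outcome is not given here. Other alternatives were RLE scaling, no filter or at least 10 counts in every library, fits of 18 or 6 libraries, a replicate block, each library left out, and, in the rule, a pseudocount of 0.1 in place of 1, CPM, no count minimum and a mean of logs. Tables and plots were made in Python 3.11.15.

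The members, gene lists and tests were chosen with earlier results of these data known. Named genes are the 10 highest scores, the 5 highest mean FPKM values, the 5 largest and 5 smallest called changes at 72 h against 4 h, members named by the study, the last 3 members and the next 3 genes, and neighbouring members. The 4 members whose mean first reached control at 72 h were added after their values were seen. The reference table of assembly Chlamydomonas_reinhardtii_v5.5 was used for locus tags and gene order only. It holds no product names, so most planned keyword lists had no members to count, and planned sequence features were not analysed here.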

Additional observations from a re-analysis of the deposited data

How the results depend on the processing

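Of 90 alternatives to the counts of members, the membership and the median course, other than leaving out a library, 83 stayed within 1.5 times of the reported count or within 1 SD of the libraries. The 7 others concerned small counts. At 12 h against 8 h, 53 members were lower with the 6 libraries compared alone, in place of 29. At 48 h against 24 h, 8 were lower with the 18 libraries of 4 to 72 h and 7 with the 6 libraries, in place of 4. At 72 h against 48 h, 12 members were higher as reported, 19 with at least 10 counts in every library, 27 with the 18 libraries, 24 with DESeq2 and 2 with the 6 libraries. The cause was not tested. Leaving out each library in turn gave 128 to 139 members higher and 0 lower at 72 h against 4 h, 79 to 90 and 13 to 16 at 8 h against 4 h, 28 to 39 and 18 to 35 at 12 h against 8 h, 18 to 32 and 10 to 14 at 24 h against 12 h, 23 to 41 and 3 to 6 at 48 h against 24 h, and 6 to 26 and 0 at 72 h against 48 h. With 2 h replicate 1 and 72 h replicate 1 both left out, chosen after the data were seen, the pairs were 142 and 0, 93 and 16, 40 and 37, 37 and 15, 46 and 7, and 8 and 0, in the same order. All 133 members higher at 72 h against 4 h were also called higher by DESeq2 and in the fit of 18 libraries. The rule shared 126 of 150 members with a pseudocount of 0.1, 134 with CPM, 132 with no count minimum, 136 with a mean of logs, and 117 to 136 without 1 library. Same-numbered libraries of different conditions deviated together in few of 108 pairs (r from −0.173 to 0.309, 13 above 0.1), so the numbers were not taken to pair the samples. With a replicate block, 133 members were higher and 0 lower at 72 h against 4 h. Of 93 calls in the 6 comparisons of the 29 members named by the choices above, 74 held under every alternative that gave a value, 19 were lost under at least 1, and none reversed. The 4 members whose mean first reached control at 72 h were not among these 29. Of the 22 members with a library at 0 counts, 21 had it in 2 h replicate 1.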

Other observations

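The deposited table also holds identifiers outside the CHLREDRAFT gene models, mostly transcripts that the authors assembled themselves. Under the same rule 44 of 2067 such identifiers with the summed count reached a score of 0.5, of which 43 were such assembled transcripts, and 25 scored at least as high as the last member. Because the rule used 2 h and 96 h, a rise from 4 h to 72 h was likely in advance for these too. By edgeR, 38 of the 44 were higher at 72 h than at 4 h (17.9% of all genes tested). None was lower (16.9% of all genes tested), and the median log2 fold change was 1.60. Without 2 h replicate 1 and 72 h replicate 1, 42 were higher and 0 were lower. The 3 assembled transcripts with the highest scores had like courses. The level of the first was 5.65 ± 0.52 FPKM (mean ± SD, n = 3) in control, 0.80 ± 0.77 at 2 h, and 3.33 ± 0.28 at 8 h, and it reached 16.6 ± 1.80 at 48 h and 23.1 ± 2.27 at 96 h. For the next it was 8.38 ± 0.60 in control, 1.55 ± 0.44 at 2 h, and 7.38 ± 0.74 at 8 h, and it reached 26.8 ± 1.68 at 48 h and 32.2 ± 6.56 at 96 h. For the last of these it was 5.25 ± 0.80 in control, 1.22 ± 0.26 at 2 h, and 4.20 ± 0.06 at 8 h, and it reached 21.7 ± 2.14 at 48 h and 19.8 ± 5.30 at 96 h. All 3 stood below control at 8 h and far above it at 48 h. Whether such transcripts overlap the gene models was not analysed here.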
